A study of Mus musculus with 8 samples.

Results

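The interferon-stimulated genes described here are 41 genes that cells switch on after interferon or viral RNA, taken by symbol from a fixed list. Of these, 38 had a probe set that the platform annotation assigns to exactly 1 gene, out of 19938 genes measured in all. Gbp2 and Igtp were read only by probe sets shared with another gene, Ifi44 had no listed probe set, and no value is given for these 3. The members were listed by name, but with earlier results of these data known, so no test was run on the list. Where a gene had several probe sets the one with the highest mean was kept, which concerned Irf1 alone among the members.

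The data are 8 Affymetrix MoGene ST arrays of mouse RNA, 2 in each of 4 groups. MBA-15, a stromal line of pre-osteoblastic character, and DA3, a mammary adenocarcinoma line, were grown together or apart, with 24 h in every sample description, and parted with magnetic particles that bind EpCAM. The groups are MBA-15 co-culture, which is the fraction without EpCAM, DA3 co-culture, which is the fraction with it, and the control cultures labelled MBA-15 alone and DA3 alone. No genotype, transgene or added agent is named, and all the groups shared medium and serum. The control cultures were seeded in parallel, and the array descriptions mark the 4 control arrays, too, as negative or positive for EpCAM. The descriptions of the 4 control arrays also carry the word mix without saying what was mixed. Each group is an established line, and nothing in the labels says that its 2 arrays came from separate cultures, so a p-value measures only the spread between these arrays, which may be technical. By its title, the study profiled how pre-osteoblastic and mammary carcinoma cells interact.

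Type I interferons bind a receptor that activates the kinases Jak1 and Tyk2, and these phosphorylate factors such as Stat2. Stat2 and Irf9 act in a complex that binds the interferon-stimulated response element (ISRE) in the promoters of the genes described here, while interferon gamma acts on the gamma-activated site (GAS). The products sense viral RNA, cut or mark it, block translation or tag proteins with the ubiquitin-like modifier ISG15, and some, such as Irf7, feed back on interferon production. Stromal cells of bone and many carcinoma lines can make or answer interferon, and tumour lines often differ in how much of this programme runs at rest.

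The promoters of several members carry the ISRE in their letters, and they are shown because the members that hold it are the genes whose levels are compared below. In the 250 bases before each gene start (RefSeq, GRCm38.p6), the core GAAANNGAAA, searched on both strands, was found for 13 of the 32 listed members that the promoter table holds (40.6%) and for 3.46% of all 27025 genes in it. The longer form GAAANNGAAACT, which contains the core, was found for 9 of 32 members (28.1%) and for 0.255% of all genes. The GAS form TTCNNNGAA, which reads the same on both strands, was found for 6 of 32 members (18.8%) and for 8.13% of all genes, and in 18 windows of the whole table it overlapped an ISRE core. The following lines run 5′ to 3′ on the strand of the gene, for the 8 measured members with the longer ISRE, with 15 bases on either side where the window allowed. Capitals mark the ISRE matches on either strand, and in Bst2 a GAS match, left in lower case where it runs beyond the capitals, overlaps the first of them.
Ifit1, chr19:34640768-34640828, plus strand: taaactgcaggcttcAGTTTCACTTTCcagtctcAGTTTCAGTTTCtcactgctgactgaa
Ifit3, chr19:34583356-34583431, plus strand: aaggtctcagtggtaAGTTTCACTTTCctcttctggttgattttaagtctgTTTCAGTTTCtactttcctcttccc
Ddx60, chr8:61928019-61928086, plus strand: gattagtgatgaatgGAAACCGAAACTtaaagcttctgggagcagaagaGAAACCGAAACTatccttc
Oas1a, chr5:120907526-120907560, minus strand: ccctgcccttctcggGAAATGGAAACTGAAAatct
Bst2, chr8:71537572-71537617, minus strand: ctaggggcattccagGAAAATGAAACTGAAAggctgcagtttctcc
Trim30a, chr7:104465205-104465246, minus strand: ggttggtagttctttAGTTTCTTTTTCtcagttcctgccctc
Gbp3, chr3:142559982-142560029, plus strand: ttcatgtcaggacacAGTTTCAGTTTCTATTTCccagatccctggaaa
Irgm1, chr11:48871421-48871465, minus strand: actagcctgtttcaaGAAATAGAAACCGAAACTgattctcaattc
Irf1, shown for contrast because its window holds a GAS match (capitals) and no ISRE core, reads as follows.
Irf1, chr11:53769909-53769947, plus strand: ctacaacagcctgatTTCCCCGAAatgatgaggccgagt
Ifit1, Ifit3, Ddx60, Oas1a, Bst2, Gbp3 and Irgm1 each hold 2 core matches, and Trim30a holds 1. The matches of Ifit1 lie 76 to 106 bases before the start and those of Oas1a 5 to 20 bases before it. The table does not hold Dhx58, Zbp1, Oas2, Mx1, Mx2, Rtp4, Usp18, Parp9 or Parp14.

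Epcam, the gene behind the separation, had log2 levels of 5.58 and 5.19 in co-cultured MBA-15, 8.45 and 9.25 in the labelled MBA-15 controls, 9.57 and 9.46 in lone DA3 and 9.30 and 9.38 in co-cultured DA3. The 2 labelled MBA-15 controls therefore carried an epithelial gene near its DA3 level, contrary to their name, and any direction drawn from them is that of arrays so labelled. A statement below on all arrays labelled MBA-15, or on the line labels, includes these 2 controls and is not one on the line alone. The mean of 16 epithelial markers was 4.96 and 4.85 in co-cultured MBA-15, 7.74 and 8.27 in the labelled MBA-15 controls, 9.02 and 8.90 in lone DA3 and 8.52 and 8.75 in co-cultured DA3. The mean of 15 stromal and osteoblast markers was 7.83 and 7.45, 7.21 and 7.21, 4.81 and 4.84, and 5.77 and 5.38 in the same order. Of those 15, 10 were higher in MBA-15 co-culture than in DA3 alone at an adjusted p under 0.05 in limma (6.08% of all genes). They included Col1a1, Col1a2 and Pdgfra, while Twist1, Thy1, Sp7, Alpl and Ibsp were not called. Twist1 was at 6.66 and 6.18 in co-cultured MBA-15 against 6.95 and 6.25 in lone DA3. Thy1 was at 3.75 and 3.77 against 3.70 and 3.39. The osteoblast genes Sp7 and Ibsp reached at most 4.58 and 4.61 on any array. Of 13 leukocyte markers, 12 lay below the lowest array median of 4.479 on all 8 arrays, among them Ptprc and the plasmacytoid dendritic cell gene Siglech, and Cd68 was the exception. In such bulk RNA, fewer cells of a type and less RNA per cell cannot be told apart.

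Co-cultured MBA-15 and lone DA3 differed widely in these genes. In MBA-15 co-culture against DA3 alone, 27 of 38 members were higher and 1, Tlr3, was lower at an adjusted p under 0.05 in limma, where 6.08% of all genes were called higher and 6.47% lower. Both MBA-15 co-culture arrays lay above both DA3 alone arrays for 37 of 38 members (27.2% of all genes), and both lay below for Tlr3 alone (26.6% of all genes). The median change of the members was 2.43 log2 units, from -2.27 to 5.03, and the median of all genes was 0.00. The median was 2.01 within assay 3 and 3.13 within assay 4, the assay number being a label of the descriptions whose meaning is not given. These groups differ in line and in culture, which cannot be told apart in this comparison, and both arrays of DA3 co-culture are therefore given beside most members. In DA3 alone 21 members had a mean below 4.479, so that their differences are at best lower bounds. With DA3 alone array 1 or array 2 left out, 16 and 15 of the 28 calls remained, and every one of these was among the 28.

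**Figure D1:**
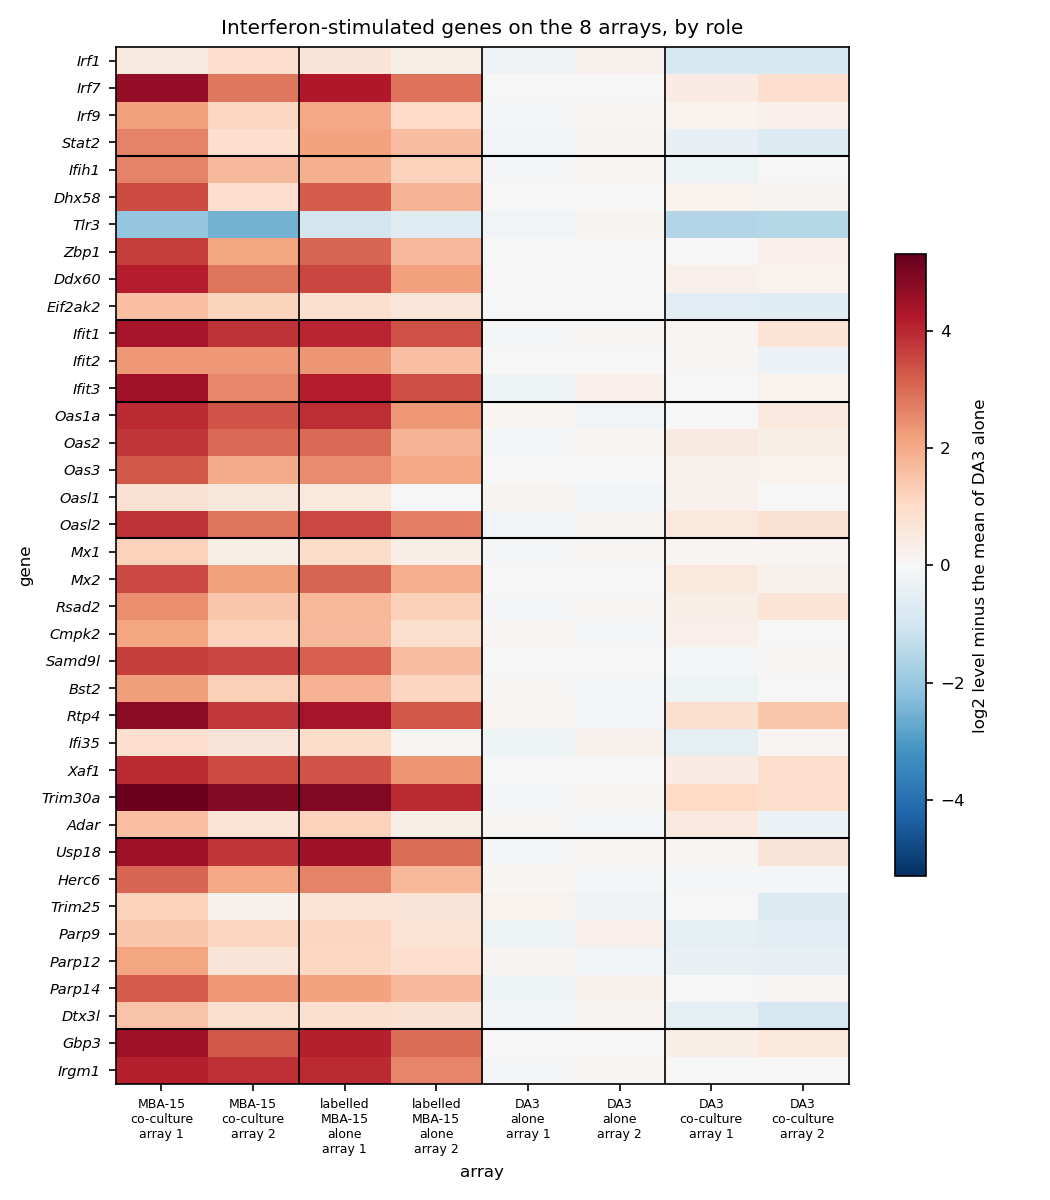
Each row is 1 of the 38 measured genes, ordered by role, each column is 1 of the 8 arrays, and the colour is the log2 level minus the gene's mean in DA3 alone. The 4 columns labelled MBA-15 are above DA3 alone for nearly all genes, Tlr3 is the row that runs the other way, and array 1 is the darker of both MBA-15 pairs for 35 of 38 genes.

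Among the transcription factors of the response, Irf7, which drives the production of interferon alpha, was at 8.48 and 6.61 in co-cultured MBA-15, 8.04 and 6.67 in the labelled MBA-15 controls, 3.82 and 3.80 in lone DA3 and 4.26 and 4.72 in co-cultured DA3. No array labelled MBA-15 overlapped a DA3 array, and the difference of 3.73 ± 0.66 (SE) passed (adjusted p = 0.0133). Stat2 was at 8.45 and 6.71, 7.96 and 7.48, 5.69 and 5.99, and 5.40 and 5.10 in the same order of groups. Its arrays did not overlap between the line labels either. Yet the difference of 1.74 ± 0.52 missed the threshold (adjusted p = 0.0853) beside a gap of 1.74 between the co-culture arrays themselves. Irf9, the DNA-binding partner of Stat2, was at 7.38 and 6.30, 7.26 and 6.24, 5.11 and 5.33, and 5.39 and 5.48 (1.62 ± 0.43, adjusted p = 0.0563). Irf1, which answers to interferon gamma, stood at 6.97 and 7.40, 7.18 and 6.84, 6.31 and 6.72, and 5.66 and 5.68 (0.67 ± 0.22, adjusted p = 0.103), so 1 of the 4 factors passed. Irf9 and Stat2 also passed in the fits without dim genes and with a variance trend. With the replicate number or the assay number as a block, Irf9 passed and Stat2 did not. Irf1 has 2 probe sets, and the values above are those of the one with the highest mean. With the mean of both probe sets, Irf1 was called lower in MBA-15 co-culture than in DA3 alone, so its direction depends on the probe set.

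Of 6 sensors of foreign nucleic acid, 4 were higher in MBA-15 co-culture and 1 was lower. Ddx60, a helicase that assists RNA sensing, had levels of 7.71 and 6.41 in co-cultured MBA-15, 7.09 and 5.74 in the labelled MBA-15 controls, 3.56 and 3.55 in lone DA3 and 3.83 and 3.75 in co-cultured DA3 (3.50 ± 0.53, adjusted p = 0.00729). Zbp1, which binds nucleic acid of the Z form and can start necroptosis, had 7.90 and 6.33, 7.33 and 5.98, 4.22 and 4.29, and 4.29 and 4.51 (2.86 ± 0.58, adjusted p = 0.0227). Both were far above DA3 on every array labelled MBA-15, with array 1 the higher of each pair. Eif2ak2, the kinase that stops translation when it binds double-stranded RNA, was at 8.14 and 7.73, 7.38 and 7.16, 6.51 and 6.56, and 5.93 and 5.90, and the 4 groups did not overlap at all (1.40 ± 0.17, adjusted p = 0.00298). Ifih1, a cytoplasmic sensor of long double-stranded RNA, was at 7.69 and 6.79, 6.96 and 6.27, 4.96 and 5.16, and 4.79 and 5.05 and differed by 2.18 ± 0.34 (adjusted p = 0.00831). Dhx58, its regulatory relative, had the same difference of 2.18 with a larger error of 0.81 and did not pass (adjusted p = 0.156).

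Tlr3, the endosomal receptor for double-stranded RNA, ran the other way. Its level was 5.56 and 5.12 in co-cultured MBA-15, 6.62 and 6.95 in the labelled MBA-15 controls, 7.46 and 7.76 in lone DA3 and 6.04 and 6.10 in co-cultured DA3. The groups did not overlap, DA3 alone was the highest and MBA-15 co-culture the lowest, and the difference between them was -2.27 ± 0.21 (adjusted p = 0.000995).

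All 3 measured members of the IFIT family, whose proteins bind foreign RNA and keep it from the ribosome, were higher in MBA-15 co-culture. Ifit1 was at 8.62 and 8.12, then 8.30 and 7.65 in the labelled MBA-15 controls, 4.21 and 4.32 in lone DA3 and 4.38 and 4.99 in co-cultured DA3 (4.11 ± 0.30, adjusted p = 0.000485). Ifit3 was at 9.70 and 7.81, 9.41 and 8.68, 4.98 and 5.52, and 5.22 and 5.43 (3.50 ± 0.59, adjusted p = 0.0112). Ifit2 differed by 2.30 ± 0.25 (adjusted p = 0.00204) and was at 6.34 and 6.34, 6.35 and 5.61, 4.05 and 4.02, and 4.09 and 3.74. The IFIT genes differed in how well their paired arrays matched, with Ifit2 level and Ifit3 apart by 1.89.

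Several, but not all, proteins of the OAS family make short oligoadenylates that activate the nuclease RNase L. Of its 5 measured members 4 were higher in MBA-15 co-culture. Oas1a was at 7.37 and 6.73, 7.32 and 5.71, 3.53 and 3.28, and 3.41 and 3.94 over the groups in the order above (3.64 ± 0.52, adjusted p = 0.00571). Oas2 was at 7.41 and 6.60, 6.60 and 5.42, 3.52 and 3.69, and 4.09 and 3.94 (3.40 ± 0.41, adjusted p = 0.00315). Oasl2 was at 8.67 and 7.64, 8.31 and 7.50, 4.68 and 4.96, and 5.38 and 5.62 (3.33 ± 0.39, adjusted p = 0.00274). In these 3 genes each array labelled MBA-15, of either culture, exceeded each DA3 array. Oas3, at 7.07 and 5.73, 6.29 and 5.81, 3.79 and 3.76, and 4.01 and 3.95, differed by 2.63 ± 0.41 (adjusted p = 0.00805), with no overlap of the line labels. Oasl1, which represses translation of Irf7, was at 5.10 and 4.92, 4.87 and 4.35, 4.44 and 4.17, and 4.55 and 4.34, and its difference of 0.70 ± 0.21 did not pass (adjusted p = 0.0812).

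Of 11 other antiviral effectors 8 were higher. Trim30a, a TRIM protein that restrains NF-kB signalling, went from 9.59 and 9.29 in co-cultured MBA-15 and 9.33 and 8.35 in the labelled MBA-15 controls to 4.33 and 4.49 in lone DA3 and 5.47 and 5.33 in co-cultured DA3 (5.03 ± 0.31, adjusted p = 0.000297). Rtp4, a receptor-transporting protein that interferon induces, was at 9.04 and 7.98, 8.61 and 7.52, 4.34 and 4.14, and 5.10 and 5.71 (4.27 ± 0.47, adjusted p = 0.00208). In both genes DA3 co-culture lay above DA3 alone without overlap and well below every array labelled MBA-15. Xaf1, which opposes an inhibitor of apoptosis, was at 8.41 and 7.90, 7.80 and 6.81, 4.48 and 4.43, and 4.88 and 5.39 (3.71 ± 0.35, adjusted p = 0.00124). Samd9l, which restrains growth and translation, was at 7.42 and 7.30, 6.94 and 5.39, 3.81 and 3.73, and 3.69 and 3.82 (3.59 ± 0.44, adjusted p = 0.00337). For Samd9l the array 2 labelled MBA-15 alone stood 1.55 below its pair while the co-culture arrays were within 0.12.

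The other effectors that passed were Mx2 (2.85), the radical enzyme gene Rsad2 (1.96), the membrane tether Bst2 (1.73) and the nucleotide kinase gene Cmpk2 (1.68), all as log2 differences. Mx2 was at 6.86 and 5.53, 6.45 and 5.28, 3.31 and 3.38, and 3.89 and 3.59, with array 1 the higher of both MBA-15 pairs. Rsad2 was at 6.74 and 5.76, 6.05 and 5.55, 4.24 and 4.34, and 4.58 and 5.00, and Cmpk2 at 5.73 and 4.87, 5.36 and 4.46, 3.73 and 3.52, and 3.90 and 3.64. Neither overlapped between the line labels. Bst2 was at 8.47 and 7.53, 8.12 and 7.42, 6.33 and 6.20, and 6.00 and 6.23, with a clear gap between the line labels on every array. Adar, which edits adenosine in double-stranded RNA, was at 8.41 and 7.51, 8.03 and 7.13, 6.85 and 6.75, and 7.30 and 6.50, and its difference of 1.16 ± 0.43 did not pass (adjusted p = 0.153). Ifi35 (0.80) and Mx1 (0.75) did not pass either. Close relatives such as the Oas1, Trim30, Ifit3, Mx and Gbp genes share sequence, so their probe sets may read more than the named gene.

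Of 7 enzymes of ubiquitin, ISG15 and ADP-ribose, 5 were higher. Usp18, which removes ISG15 and damps the interferon receptor, was at 8.59 and 7.88 in co-cultured MBA-15, 8.59 and 7.05 in the labelled MBA-15 controls, 4.03 and 4.15 in lone DA3 and 4.21 and 4.77 in co-cultured DA3 (4.14 ± 0.50, adjusted p = 0.00308). The ADP-ribosyltransferase gene Parp14 was at 7.65 and 6.74, 6.60 and 6.17, 4.24 and 4.68, and 4.48 and 4.53 (2.73 ± 0.32, adjusted p = 0.00276). Both genes kept the line labels apart on every array. Herc6, the mouse ligase for ISG15, was at 8.03 and 7.02, 7.57 and 6.74, 5.05 and 4.86, and 4.84 and 4.86 and differed by 2.57 ± 0.38, and Parp9 and Dtx3l, whose products form a complex, by 1.30 ± 0.24 and 1.17 ± 0.25. Parp9 was at 7.25 and 6.89, 6.91 and 6.50, 5.51 and 6.03, and 5.31 and 5.19, and Dtx3l at 7.11 and 6.45, 6.47 and 6.40, 5.47 and 5.75, and 5.09 and 4.74. The line labels did not overlap in these 3 genes. Parp12, at 8.68 and 7.25, 7.69 and 7.47, 6.72 and 6.44, and 6.18 and 6.15, had a difference of 1.38 ± 0.42 and did not pass (adjusted p = 0.0872). Trim25, a ubiquitin ligase of the RNA sensor pathway, was at 8.19 and 7.20, 7.69 and 7.67, 7.14 and 6.80, and 7.01 and 6.23, the smallest gap of this group (0.73 ± 0.37, adjusted p = 0.317).

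Both measured interferon-inducible GTPases, which act on the membranes around intracellular microbes, were higher. Irgm1 was at 9.16 and 8.95, 9.01 and 7.63, 4.94 and 5.17, and 5.10 and 5.08 (4.00 ± 0.40, adjusted p = 0.00156). Gbp3 was at 8.22 and 7.02, 7.85 and 6.69, 3.72 and 3.71, and 4.05 and 4.27 (3.90 ± 0.48, adjusted p = 0.00319). Neither overlapped between the line labels. Of the 29 measured members with a promoter window, the 11 with an ISRE core had a median difference of 3.50 and 10 of them passed higher, and the 18 without it had a median of 1.51 and 10 passed higher, given as a description with no test.

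**Figure D2:**
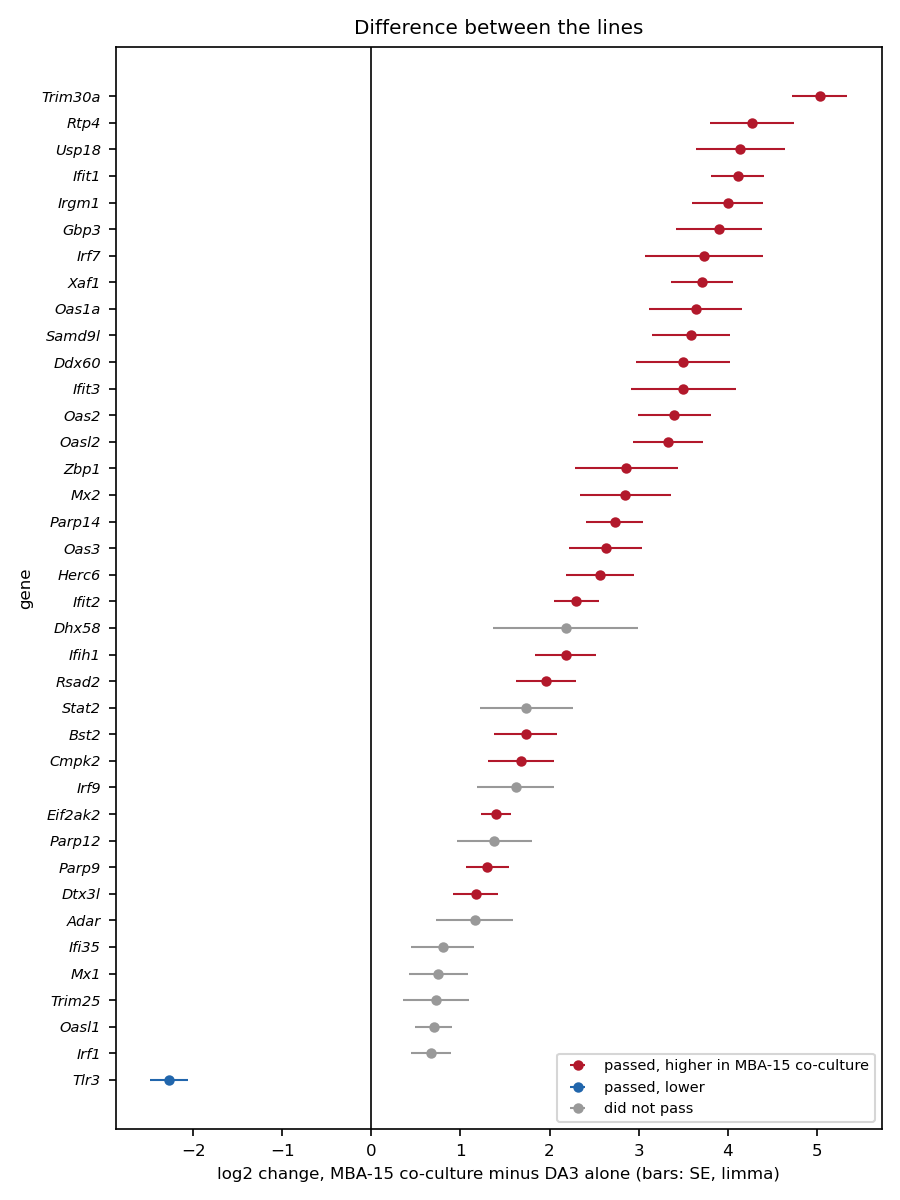
Each point is the log2 level of 1 of the 38 genes in MBA-15 co-culture minus that in DA3 alone, and the bars are standard errors from limma. The 27 genes that passed higher reach from 1.17 for Dtx3l to 5.03 for Trim30a, 10 genes did not pass, and Tlr3 at -2.27 passed lower.

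The paired arrays of both MBA-15 groups were apart in these genes. In MBA-15 co-culture, 36 of 38 members were higher on array 1 (47.5% of all genes), by a median of 0.90 log2 units against -0.02 over all genes. Of the members, 14 were over 1 log2 unit higher on array 1 (3.13% of all genes) and 0 were over 1 unit lower (1.32% of all genes). In the labelled MBA-15 controls, 37 of 38 members were higher on array 1 (55.8% of all genes), by a median of 0.81 against 0.04 over all genes, and 13 were over 1 unit higher (0.582% of all genes) and 0 over 1 unit lower (1.52%). In both MBA-15 groups array 1 carries assay number 4 and array 2 number 3. DA3 alone has the same assay numbers in the same order, and there 16 of 38 members were higher on array 1 (55.1% of all genes), with a median difference of -0.08 and 0 members over 1 unit higher (0.105% of all genes) or lower (0.206%). In DA3 co-culture, with assay 3 against assay 5, 18 of 38 were higher on array 1 (40.6% of all genes) with a median of -0.02, and 0 were over 1 unit higher (3.64%) or lower (2.39%). These are differences between replicates of a group, given with no test.

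**Figure D3:**
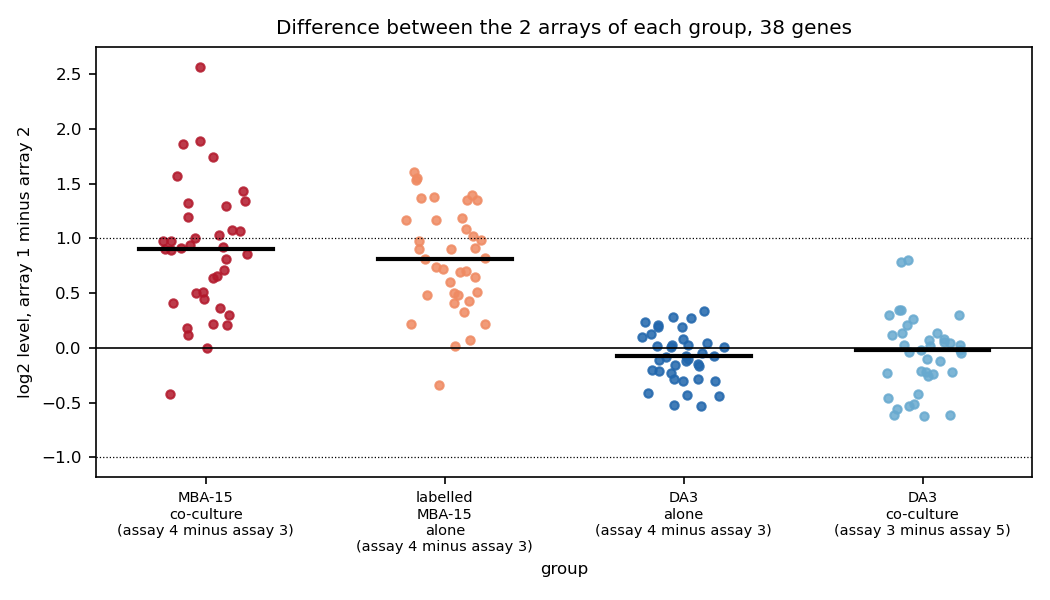
Each point is 1 of 38 genes, the vertical axis is the log2 level on array 1 minus that on array 2 of the same group, the bars are medians, and dotted lines mark 1 log2 unit. The medians are 0.90 in MBA-15 co-culture and 0.81 in the labelled MBA-15 controls, against -0.08 and -0.02 in the 2 DA3 groups.

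Dhx58, the regulatory RNA helicase, had the widest gap, with 7.09 and 4.52 in co-cultured MBA-15 and 6.81 and 5.41 in the labelled MBA-15 controls, while DA3 alone stood at 3.59 and 3.66 and DA3 co-culture at 3.81 and 3.76. Array 2 of MBA-15 co-culture was thus closer to DA3 than to its own pair. Next were Ifit3 (1.89), Irf7 (1.86), Stat2 (1.74) and Zbp1 (1.57), as array 1 minus array 2 of MBA-15 co-culture. Parp12 (1.43), Oas3 (1.34), Mx2 (1.32), Ddx60 (1.30) and Gbp3 (1.20) followed. In the labelled MBA-15 controls the same 10 genes were apart by 1.40 for Dhx58, 0.72 for Ifit3, 1.37 for Irf7, 0.48 for Stat2, 1.35 for Zbp1, 0.22 for Parp12, 0.48 for Oas3, 1.17 for Mx2, 1.35 for Ddx60 and 1.17 for Gbp3. The sign was the same for all 10 genes.

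The members that moved most differed between the MBA-15 groups. Samd9l, Irgm1 and Oas1a were apart by 0.12, 0.21 and 0.64 in MBA-15 co-culture but by 1.55, 1.38 and 1.61 in the labelled MBA-15 controls. Stat2 and Parp12 showed the reverse. The members higher on array 1 in both MBA-15 groups numbered 35 of 38 (25.8% of all genes), and those over 0.5 unit higher in both numbered 21 (1.29% of all genes). The exceptions to the first count were Irf1 (-0.42 in co-culture and 0.33 on the labelled arrays), Tlr3 (0.45 and -0.34) and Ifit2 (0.00 and 0.74). Across the 38 members the differences of the MBA-15 groups correlated with r = 0.20, and across all genes with r = 0.01. The former is a description over genes of the same 4 arrays.

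Other features moved with these arrays. The 51 genes of small nucleolar RNAs, a list chosen after the values were seen, were lower on array 1 of MBA-15 co-culture for 45 of 51 (median -0.89, list means 6.35 and 7.31). In the labelled MBA-15 controls only 10 of 51 were lower on array 1 (median 0.53, list means 6.53 and 5.99), so this list ran opposite ways in the groups in which the interferon-stimulated genes ran the same way. The epithelial marker mean was 7.74 and 8.27 on arrays 1 and 2 labelled MBA-15 alone and 4.96 and 4.85 in co-cultured MBA-15, and the stromal mean was 7.21 on both and 7.83 and 7.45. The part of these features in the gap between the arrays was not tested.

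For MBA-15, co-culture with DA3 was set against the arrays labelled MBA-15 alone. Tlr3 was the 1 member to pass, lower in co-culture by -1.44 ± 0.21 (adjusted p = 0.0378), and 0 members passed higher, where 0.772% of all genes were called lower and 0.0752% higher. At an unadjusted p under 0.05 there were 6 members, against 9.80% of all genes. The median change of the members was 0.37, from -1.44 to 1.20, with 34 of 38 above 0, against a median of 0.04 and 58.4% above 0 for all genes. This median was 0.39 within assay 3 and 0.37 within assay 4. Leaving out array 1 of the co-culture, or array 2 of the labelled controls, brought it to -0.04. Leaving out the other array of either group brought it to 0.84 (co-culture array 2) and 0.75 (control array 1).

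The call of Tlr3 came with the epithelial signal on the labelled arrays. Of the 16 epithelial markers 14 passed lower in the same comparison (median change -3.34), and the Tlr3 level of 6.62 and 6.95 in the labelled MBA-15 controls lies between those of co-cultured MBA-15 and lone DA3, as does their Epcam. The part of that signal in the fall of Tlr3 was not tested. The change of Tlr3 was -1.84 within assay 3 and -1.05 within assay 4, and its adjusted p was 0.0792 with the replicate number as a block, 0.0893 with the assay number as a block and 0.163 in a fit of the 2 groups alone. Leaving out any 1 of the 8 arrays also ended the call, with adjusted p from 0.0548 to 0.272.

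The largest positive changes did not pass. Samd9l had a change of 1.20 ± 0.44 (adjusted p = 0.433), with 7.42 and 7.30 in co-culture against 6.94 and 5.39. Oas2 had 1.00 ± 0.41 (adjusted p = 0.506), Xaf1 0.86 ± 0.35 (adjusted p = 0.505) and Parp14 0.81 ± 0.32 (adjusted p = 0.476). In these 4 genes both co-culture arrays lay above both labelled arrays, as in 6 of 38 members in all (22.3% of all genes), a share that is not above that of all genes. Without array 1 labelled MBA-15 alone, Samd9l (1.97, adjusted p = 0.013) and Irgm1 passed. The mean in the labelled MBA-15 controls lay between lone DA3 and co-cultured MBA-15 for 35 of 38 members and above both for 3, Stat2, Dhx58 and Ifit3.

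For DA3, co-culture with MBA-15 was set against DA3 alone. No member passed, with 0 of 38 higher and 0 lower, where 0.01% of all genes were called higher and 0.0301% lower in limma (1 and 0 genes after quantile normalization). Unadjusted, 6 members and 14.9% of all genes were under 0.05. The median change of the members was 0.12 against 0.04 for all genes. The largest positive changes were those of Rtp4 (1.16 ± 0.47, adjusted p = 0.325), Trim30a (0.99 ± 0.31, adjusted p = 0.258), Xaf1 (0.68 ± 0.35, adjusted p = 0.411), Oasl2 (0.68 ± 0.39, adjusted p = 0.442) and Irf7 (0.68 ± 0.66, adjusted p = 0.617). For these 5 genes both DA3 co-culture arrays lay above both DA3 alone arrays, as for 17 of 38 members (31.4% of all genes). The stromal marker mean also stood higher in DA3 co-culture, at 5.77 and 5.38 against 4.81 and 4.84, with the collagen gene Col1a1 at 9.61 and 7.78 against 6.65 and 6.91, and its part in these changes was not tested. Within assay 3 the changes were 0.96 for Rtp4, 0.98 for Trim30a, 0.45 for Xaf1 and 0.42 for Oasl2.

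On the other side, Tlr3 had a change of -1.54 ± 0.21 (adjusted p = 0.0869), from 7.46 and 7.76 to 6.04 and 6.10, the lowest adjusted p among the members. It passed in 2 alternative fits, with dim genes left out (adjusted p = 0.0386) and with a variance trend (adjusted p = 0.0449). Irf1 had a change of -0.84 ± 0.22 (adjusted p = 0.209), from 6.31 and 6.72 to 5.66 and 5.68, Dtx3l of -0.70 ± 0.25 (adjusted p = 0.291), from 5.47 and 5.75 to 5.09 and 4.74, and Eif2ak2 of -0.62 ± 0.17 (adjusted p = 0.221). In each of these 4 genes the groups did not overlap, as in 8 of 38 members on this side (22.4% of all genes).

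**Figure D4:**
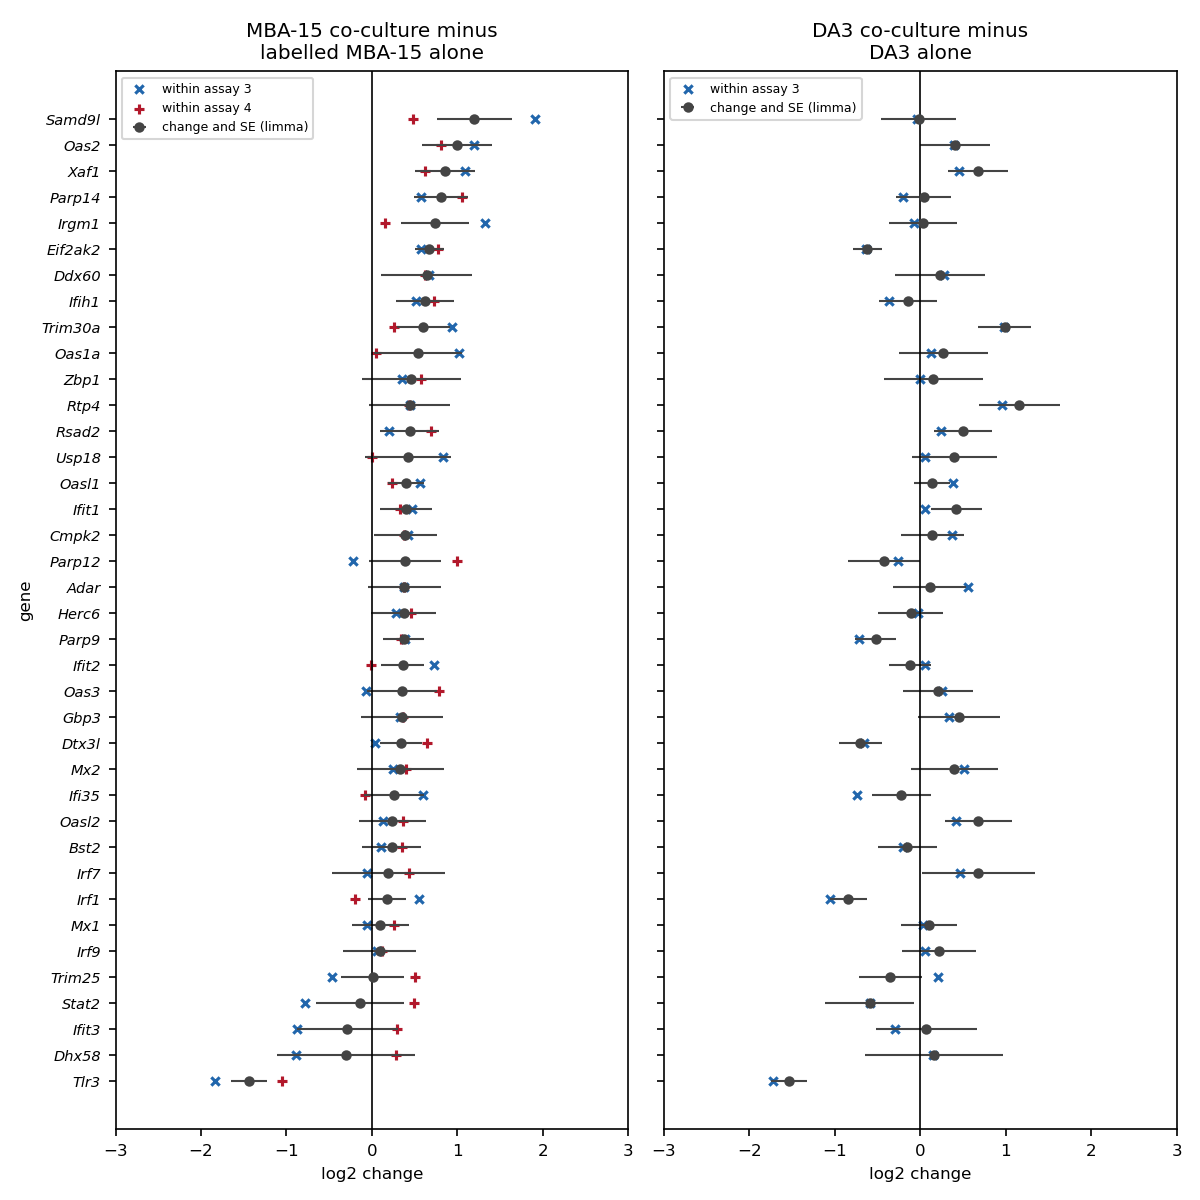
Points are the log2 changes of 38 genes with co-culture in MBA-15 (left) and DA3 (right), bars are standard errors from limma, crosses are the changes within assay 3 and plus signs, on the left, those within assay 4. Only Tlr3 at -1.44 passed on the left, and it is also the lowest on the right at -1.54, where it did not pass.

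The change with co-culture was also compared between the lines. Of the members 0 differed at an adjusted p under 0.05, where 0.0% of all genes were called higher and 0.0602% lower, and 4 of 38 had an unadjusted p under 0.05 (6.32% of all genes). The lowest adjusted p was that of Eif2ak2 at 0.22, with a change of 0.67 ± 0.17 in MBA-15 and -0.62 ± 0.17 in DA3, the latter -0.29 after quantile normalization. The MBA-15 change is set against the labelled controls with their epithelial signal. Their Eif2ak2 mean of 7.27 lies between 6.53 in lone DA3 and 7.94 in co-cultured MBA-15, and the part of that signal was not tested.

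Genes of the interferon pathway outside the members were described from lists of 95 genes, of which 83 were measured. Of 9 interferon genes 0 passed in any of the 4 comparisons, where at most 6.47% of all genes were called in a direction. Ifnb1, the first interferon made by most infected cells, was at 4.05 and 4.03 in co-cultured MBA-15, 4.04 and 3.97 in the labelled MBA-15 controls, 4.13 and 3.92 in lone DA3 and 4.27 and 4.17 in co-cultured DA3, and Ifng was at most 3.95. Of the 9 genes, Ifnb1, Ifna2, Ifna4, Ifne, Ifnk and Ifng lay below the lowest array median on all 8 arrays, so that the arrays do not show whether these transcripts were made. Ifna5 (5.11 to 6.07), Ifnz (4.80 to 6.31) and Ifnl2 (5.18 to 6.30) lay above it on all 8 arrays.

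Receptors and kinases of the pathway were measured in both lines. Ifnar1 was at 7.11 and 7.47, 6.80 and 7.49, 6.92 and 7.16, and 6.17 and 6.28 over the groups in the order above, and Ifnar2 at 8.40 and 8.25, 8.50 and 8.93, 8.46 and 8.61, and 7.12 and 7.28. These receptor genes differed by 0.25 ± 0.25 and -0.21 ± 0.18, again as co-cultured MBA-15 minus DA3 alone, and did not pass. Of the 10 measured receptors and kinases, Jak1 was higher in MBA-15 co-culture (1.19 ± 0.15, adjusted p = 0.00384), and Ifnlr1, the receptor of lambda interferons, and its partner Il10rb were lower (-2.12 ± 0.44 and -0.84 ± 0.19). Over all genes 6.08% were called higher and 6.47% lower there. The co-culture change of Ifnar2 in DA3 was -1.34 ± 0.18 and did not pass (adjusted p = 0.0844).

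In the sensing pathway upstream of interferon, 4 of 14 genes were higher in MBA-15 co-culture than in DA3 alone and 1 was lower. Over all genes 6.08% were called higher and 6.47% lower in this comparison. The RNA sensor gene Ddx58 differed by 3.30 ± 0.26, the adaptor gene Sting1 by 2.34 ± 0.40, the DNA sensor gene Aim2 by 1.86 ± 0.28 and Irf5 by 0.91 ± 0.15, and Irf3, the factor that starts interferon transcription, by -0.60 ± 0.14. Of 9 negative regulators, the phosphatase gene Ptpn6 was lower (-2.06 ± 0.21) and 0 were higher. Of 41 other interferon-induced genes outside the members, 23 were higher and 0 lower, among them Lgals3bp (4.11 ± 0.23), Gbp7 (3.96 ± 0.35) and the nuclear body gene Sp100 (3.52 ± 0.30). In both co-culture comparisons and in their difference 0 of the 83 genes passed. Of all genes, 0.0752% were called higher and 0.772% lower in MBA-15, 0.01% and 0.0301% in DA3 and 0.0% and 0.0602% in the difference. At shares this low the count is not a result about these genes.

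The gap between the MBA-15 arrays was smaller in this wider set. Of the 41 other interferon-induced genes, 31 were higher on array 1 of MBA-15 co-culture (47.5% of all genes). On array 1 labelled MBA-15 alone 34 were higher (55.8% of all genes), and the medians were 0.30 and 0.41. The chemokine gene Cxcl10 was at 8.29 and 6.56 in co-cultured MBA-15 and at 8.17 and 6.53 on the labelled arrays, against 4.36 and 4.08 in DA3 alone. Its array 1 values were alike in the MBA-15 groups, and so were its array 2 values. The interferon genes had medians of 0.02 and 0.12, and the receptors and kinases of -0.01 and -0.50.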

How the data were processed

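The 8 deposited columns hold log2 expression per probe set, made by the authors with RMA and Partek 6.5 per the submitters' processing notes, without stated parameters; the log2 scale was read from the value range. RMA scales arrays to each other, so changes are relative to other genes, and the number of arrays limits precision. Of 35556 probe sets, 21789 had 1 gene symbol, 1621 several and 12146 were unlisted; 21698 matched RefSeq (GRCm38.p6) by Entrez identifier with 0 symbols changed. Array medians ran from 4.48 to 4.64. Group and replicate came from titles, and the assay number from descriptions. The 4 group means were fitted over 8 arrays with limma 3.58.1 (R 4.3.3; 4 residual and 2.6 prior degrees of freedom), adjusted over 19938 genes by Benjamini-Hochberg at 0.05, two-sided. The fit was tested on simulated data. The members and lists were chosen with earlier results of these data known, so no test was run on a list. Full values are given for members that passed (up to 10 by change in each direction) or otherwise the 4 largest changes, for the 10 widest gaps between the MBA-15 co-culture arrays and for the brightest 2 of each role group. Motifs were searched in RefSeq promoters. Alternatives covered blocks, scaling, dim genes, probe sets, variance trend, the 2 groups alone and each array left out.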

Additional observations from a re-analysis of the deposited data

Results flagged for a closer look

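Eif2ak2 is listed because its arrays did not overlap between co-culture and control in either pair of groups and the changes ran opposite ways. They were 0.67 ± 0.17 in MBA-15, against the labelled controls, and -0.62 ± 0.17 in DA3 (-0.29 after quantile normalization, limma adjusted p = 0.693). The difference of these changes was 1.29 ± 0.24 and did not pass over all genes (limma adjusted p = 0.22, unadjusted p = 0.00122). The labelled controls carry epithelial signal, and their Eif2ak2 mean of 7.27 lies between 6.53 in lone DA3 and 7.94 in co-cultured MBA-15. The part of that signal in the MBA-15 change was not tested. The groups of 2 arrays were too small to look for single arrays far from the others.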

How the results depend on the processing

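For MBA-15 co-culture against the labelled controls, 0 members were called with the replicate number as a block, the assay number as a block or the 2 groups alone, and 0 to 2 when 1 array was left out, with a median change of members from -0.04 to 0.84. For DA3, 1 member, Tlr3, was called without dim genes and with a variance trend, 0 with the replicate block, and 0 without any 1 array, where the median ran from 0.08 to 0.16. Between the lines, the replicate block and the assay number block each called 31 members, all 28 and Adar, Irf9 and Oasl1, and leaving out 1 array gave 15 to 32 calls and a median of 2.01 to 3.13, which was 3.13 within assay number 4. For the difference of the co-culture changes 0 members were called under the replicate block and without any 1 array. Replicate numbers were not taken as pairs in the main fit, since each comparison has only 2. The assay number follows the replicate number alike in both MBA-15 groups and in DA3 alone, but not in DA3 co-culture, and its meaning is not given. Over all genes the array differences correlated by 0.01 between the MBA-15 groups, 0.03 between the DA3 groups and 0.21 between co-cultured MBA-15 and lone DA3. Centring arrays on their median moved the median change of all genes in MBA-15 from 0.04 to 0.15. Single members were followed across the settings only where they had passed in a comparison or had its largest changes. Of these values, 367 kept direction and side of the threshold, 14 lost the call, 3 gained it and 0 reversed. Irf1 in MBA-15 co-culture against DA3 alone was not among them. Its difference of 0.67, not called, turned into a lower call with the mean of probe sets. Over all genes, the MBA-15 calls (15 higher, 154 lower) became 9 and 256 without dim genes, 43 and 283 with a variance trend and 0 and 28 with the 2 groups alone. The DA3 calls (2 and 6) became 19 and 55, 40 and 80, and 0 and 0 in the same order, and 1 and 2 with the replicate block. Those of the difference of changes (0 and 12) became 0 and 49 and 0 and 36 in the first 2 of these, 0 and 25 after quantile normalization and 0 and 0 with the replicate block.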
